A study of Mus musculus with 6 samples.

Results

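Dopamine acts in the hippocampus through D1-like and D2-like G protein-coupled receptors. The D1-like receptors, encoded by *Drd1* and *Drd5*, stimulate adenylyl cyclase and raise cAMP, which activates protein kinase A (PKA), while the D2-like receptors, among them that of *Drd2*, inhibit the same enzyme. In striatal projection neurons this cascade runs through the G protein subunit of *Gnal*, the adenylyl cyclase of *Adcy5*, the PKA-regulated phosphatase inhibitor of *Ppp1r1b* (also called DARPP-32) and the phosphodiesterase of *Pde10a*, and monoamine oxidases encoded by *Maoa* and *Maob* degrade the transmitter. In the hippocampus, dopamine is known as a modulator of LTP and of memory consolidation.

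These 9 genes were chosen by symbol from the 55421 genes of the deposited table, and each matched 1 row. Hippocampal RNA came from 3 wild-type male C57BL/6N mice that received substance P (SP, 10 µM, 100 µL) under the skin for 14 days, and from 3 that received the same volume of saline (vehicle). The mice were 8 to 10 weeks old. Each mouse gave 1 stranded mRNA library, numbered 1 to 3 in each group, and the labels call that number a batch. All directions below follow the sample labels, which no transcript in the table checks. If the labels of the groups were exchanged, the sign of every difference below would be reversed.

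The libraries held 22349964 to 27605935 estimated counts. Hippocampal identity was visible in every library: *Prox1*, a transcription factor of dentate granule cells, had 75.5 to 129 CPM (counts scaled to a common, TMM-normalized library size), *Fibcd1*, a marker of CA1 pyramidal cells, had 134 to 174 CPM, and *Bok*, enriched in CA3, had 25.7 to 42.0 CPM. Library SP 1 stood apart in choroid plexus transcripts. The 9 markers of that epithelium summed to 181 CPM there, against 3897 to 4882 CPM in the vehicle libraries and 2876 and 4058 CPM in SP 2 and SP 3. Where leaving out a replicate number moved a named difference past a threshold or by over 1.5 times, the value without it is given beside it for those members and pathway genes that had an unadjusted p under 0.05.

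SP and vehicle were compared by a quasi-likelihood fit in edgeR that took the replicate number as a block, over the 17069 genes that passed a filter on low counts. All 9 genes passed that filter. With FDR < 0.1 and |log2FC| > 0.3, 0 of the 9 were called, where 0.0293% of all tested genes were. By limma-voom and by DESeq2 with the block the count was also 0, although DESeq2 gave no adjusted p for *Drd1* and *Drd2*. An unadjusted p under 0.05 was found for 4 of the 9 genes, where 10.1% of all tested genes had one. The 9 genes were chosen with earlier results of these data known, so these 2 shares do not test for enrichment. *Drd1*, *Ppp1r1b* and *Maob* were on the lower side (5.59% of all tested genes) and *Drd5* was on the higher side (4.48%). In 2 of the 9, *Drd1* and *Drd5*, the 3 libraries of one label did not overlap the 3 of the other, which was so for 18.2% of all tested genes (9.03% lower and 9.19% higher). Settings changed these counts. *Drd1* was called with no filter on low counts (FDR 0.0226, with 1.37% of all tested genes called) and by DESeq2 with no replicate block (FDR 0.0639, 1.02% called). Without replicate 1, 2 or 3, an unadjusted p under 0.05 was found for 2, 5 or 3 of the 9 genes, where 5.93%, 11.4% or 10.2% of all tested genes had one.

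**Figure D1:**
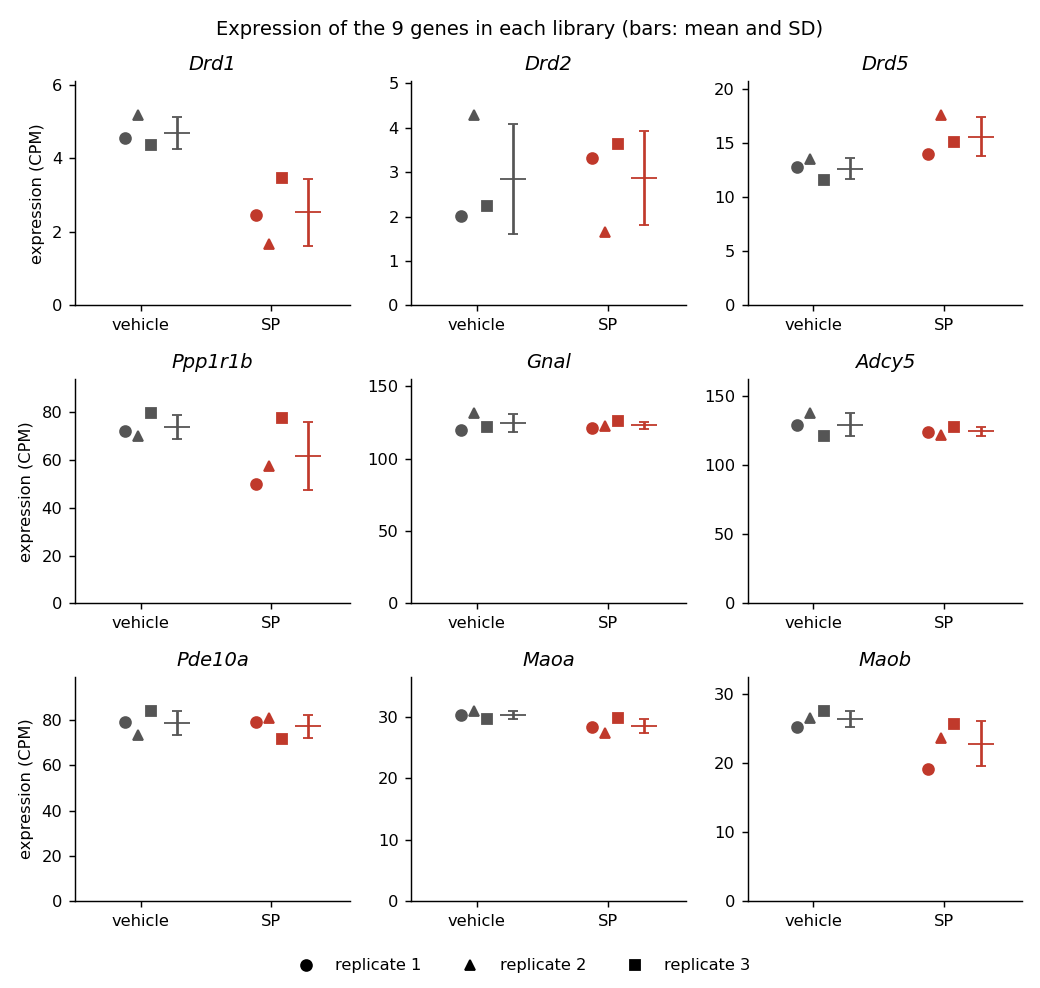
Expression of the 9 genes in CPM (vertical axis, from 0) in each vehicle and SP library, with 1 symbol for each replicate number and the mean and SD over 3 mice beside it. *Drd1* lies between 4.35 and 5.17 CPM in the vehicle libraries and between 1.66 and 3.46 CPM in the SP libraries, *Drd5* is higher in each SP library than in any vehicle library, and the groups overlap in the other genes.

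The 9 genes covered a wide range of levels. Scaled to exonic length, as CPM per kb of annotated exon, *Ppp1r1b* was highest with 23.2 ± 3.99 (SD over 6 libraries), followed by *Adcy5* with 17.7 ± 0.853 and *Gnal* with 11.1 ± 0.375. *Maob* and *Maoa* had 8.84 ± 1.06 and 7.05 ± 0.313 CPM per kb, and *Pde10a* had 6.06 ± 0.364. The receptors were lowest on this scale, with 4.47 ± 0.659 CPM per kb for *Drd5*, 1.12 ± 0.407 for *Drd2* and 0.996 ± 0.370 for *Drd1*. Neighbors in this order whose ranges over the libraries overlapped were *Ppp1r1b* and *Adcy5*, *Maob* and *Maoa*, *Pde10a* and *Drd5*, and *Drd2* and *Drd1*. *Drd5* was thus the most abundant dopamine receptor transcript in each library, and the G protein subunit and cyclase transcripts exceeded every receptor transcript. The remaining receptors, *Drd3* and *Drd4*, had 4 and 13 counts in all 6 libraries together and were not tested.

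*Drd1* encodes the D1 receptor and lies on the minus strand of chromosome 13 between 54051183 and 54055705 (GRCm38, ENSMUSG00000021478). Its estimated counts were 106, 128 and 120 in vehicle 1 to 3 and 58, 40 and 77 in SP 1 to 3. The same libraries had 4.56, 5.17 and 4.35 CPM and 2.47, 1.66 and 3.46 CPM. Each SP library was below every vehicle library, and the SP libraries differed among themselves more than the vehicle libraries did. The log2 fold change was -0.92 (standard error 0.246, 95% interval -1.50 to -0.35), a ratio of 0.528, with an FDR of 0.359 in edgeR's test. The log2 ratios within the replicate pairs were -0.88, -1.64 and -0.33. Without replicate 2, which holds the lowest library, the log2 fold change was -0.60 (FDR 0.339), and without replicate 1 or 3 it was -0.94 or -1.25. Counting error alone was wide at this depth, since the 40 counts of SP 2 have an exact Poisson 95% interval of 28.6 to 54.5 counts, and the 77 counts of SP 3 one of 60.8 to 96.2. In bulk tissue, fewer cells of a type and less RNA per cell cannot be told apart.

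*Drd5* (ENSMUSG00000039358, chromosome 5 from 38319367 to 38322518, plus strand) encodes the other D1-like receptor, D5, and is a single-exon gene. Vehicle 1 to 3 had 12.8, 13.5 and 11.6 CPM, and SP 1 to 3 had 14.0, 17.6 and 15.1 CPM. The SP libraries were all higher, with the lowest of them 0.521 CPM above the highest vehicle library. Its log2 fold change was 0.30 (standard error 0.0903, 95% interval 0.091 to 0.51) with an FDR of 0.403, and the pairs had 0.14, 0.38 and 0.39. Leaving out replicate 2 or 3 gave 0.26 in each case, with an unadjusted p of 0.0457 or 0.0678 in edgeR's test. In DESeq2's test with the block and all libraries, the unadjusted p was 0.0896. The gene shares 1531 exonic bases with the antisense gene *Gm26560*, which had 2 to 11 counts in each library against 297 to 423 for *Drd5*. Whether the counting used strand is not given in the sources used here, so reads of the antisense gene may be included.

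Since both D1-like receptors were counted in the same library, their ratio needs no scaling between libraries. *Drd1* had 0.357, 0.383 and 0.376 counts for each count of *Drd5* in vehicle 1 to 3, and 0.176, 0.0946 and 0.228 in SP 1 to 3. The difference in the log2 ratio was -1.25, from -1.43 ± 0.0533 to -2.68 ± 0.654 (SD, n = 3 each). A two-sided exact permutation test gave p = 0.1, the smallest p that 3 libraries against 3 allow. Each gene alone already separated the groups, in opposite directions, so this p was fixed in advance and adds nothing to the separate values. Scaled to exonic length, *Drd1* made up 23.7%, 24.98% and 24.6% of the summed D1-like transcripts in the vehicle libraries and 13.3%, 7.59% and 16.6% in the SP libraries. The summed level of both genes did not separate the groups, with 4.87 to 5.71 CPM per kb in the vehicle libraries and 5.13 to 6.03 CPM per kb in the SP libraries. Without replicate 2 the difference in the log2 ratio was -0.87.

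**Figure D2:**
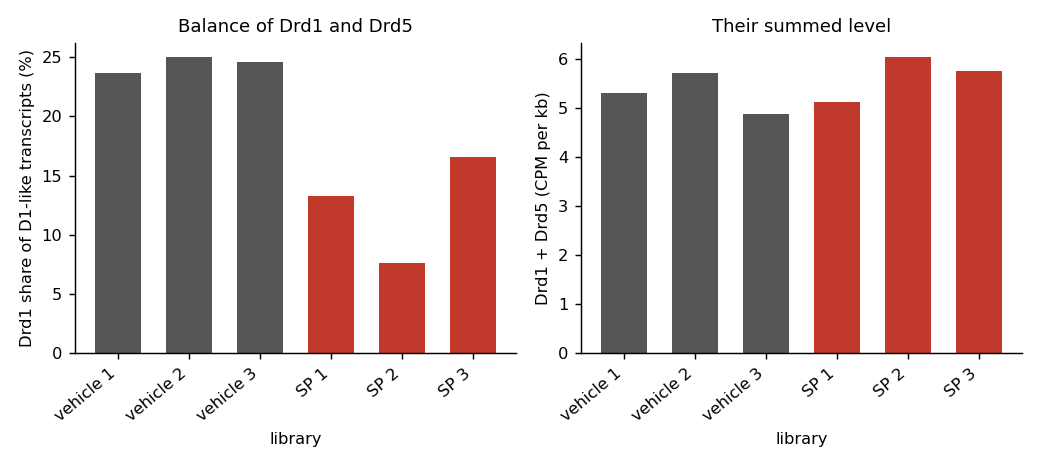
Left, the share of *Drd1* in the summed length-scaled level of *Drd1* and *Drd5* (percent) in each of the 6 libraries, and right, that summed level (CPM per kb), with vehicle libraries in gray and SP libraries in red. The share is 23.7% to 24.98% in the vehicle libraries and 7.59% to 16.6% in the SP libraries, while the summed levels overlap.

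The sequences before the start sites of these 2 receptor genes are shown because the estimates for the genes had opposite signs. They were taken from RefSeq (GRCm38.p6) as the part of the 250 bases before the RefSeq start that precedes the first annotated exon in GENCODE, and capitals mark matches to the GC box, GGGCGG on either strand. The stretch printed for *Drd1* is chr13:54055706-54055908 on the minus strand, and that for *Drd5* is chr5:38319259-38319366 on the plus strand.
Drd1: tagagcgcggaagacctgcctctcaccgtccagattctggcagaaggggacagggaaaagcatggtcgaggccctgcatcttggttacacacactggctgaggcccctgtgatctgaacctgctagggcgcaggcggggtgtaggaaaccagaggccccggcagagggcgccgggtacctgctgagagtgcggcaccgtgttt
Drd5: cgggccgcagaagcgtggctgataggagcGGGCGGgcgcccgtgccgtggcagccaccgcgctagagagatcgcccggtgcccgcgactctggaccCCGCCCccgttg

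The 250-base window of *Drd5* held 2 GC boxes, that of the upstream *Drd1* start held 0, and that of the other *Drd1* start, not printed, held 1. At least 1 GC box was in 6 of the 8 windows found for members, and 32.7% of all 32851 promoter windows hold at least 1. The cAMP response element TGACGTCA was in 0 of the 8 windows found for 6 of the 9 genes (1.55% of all windows), and its half-site TGACG, on either strand and contained in the full element, was in 1, that of *Maoa* (17.8% of all windows). These matches describe the letters of the windows, and no binding was measured.

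*Drd2* (ENSMUSG00000032259, chromosome 9 from 49340627 to 49408177, plus strand) encodes the D2 receptor. It had 47, 106 and 62 counts in the vehicle libraries and 78, 40 and 81 in the SP libraries, or 2.02, 4.28 and 2.25 CPM and 3.32, 1.66 and 3.64 CPM. Its libraries overlapped fully, and replicate 2 held both the highest vehicle library and the lowest SP library. The log2 fold change of 0.028 (standard error 0.395, FDR 0.989) had a 95% interval from -0.90 to 0.95, so that changes of nearly 2-fold in either direction were not excluded. Without replicate 2 the log2 fold change was 0.70 (FDR 0.279), and without replicate 1 or 3 it was -0.31 or -0.33.

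*Gnal* (ENSMUSG00000024524, chromosome 18 from 67088216 to 67226792) encodes the olfactory-type G protein subunit that couples D1 receptors to adenylyl cyclase in the striatum. Vehicle 1 to 3 had 120, 131 and 122 CPM, and SP 1 to 3 had 121, 122 and 126 CPM. *Adcy5* (ENSMUSG00000022840, chromosome 16 from 35154877 to 35305738), the cyclase downstream of it, had 129, 138 and 121 CPM and 124, 122 and 128 CPM. The SP libraries of both genes lay within the range of the vehicle libraries. The log2 fold changes were -0.015 (standard error 0.0539, FDR 0.949) and -0.055 (standard error 0.0615, FDR 0.806). With 95% intervals from -0.14 to 0.11 and from -0.20 to 0.089, these are the members for which the data leave the least room for a change. *Gnal* shares 852 exonic bases with *Mppe1* on the other strand, which had 389 to 472 counts against 2794 to 3363 for *Gnal*.

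*Ppp1r1b* (ENSMUSG00000061718, chromosome 11 from 98348404 to 98357796) encodes DARPP-32, which inhibits protein phosphatase 1 when PKA has phosphorylated it. Vehicle 1 to 3 had 72.0, 70.3 and 79.6 CPM, and SP 1 to 3 had 49.9, 57.7 and 77.5 CPM. SP 1 and SP 2 were below all vehicle libraries and SP 3 was among them. The log2 fold change was -0.28 (standard error 0.0908, 95% interval -0.49 to -0.070, FDR 0.416), and the pairs had -0.53, -0.29 and -0.040. Without replicate 1 it was -0.16 (unadjusted p 0.129, edgeR) and without replicate 3 it was -0.41. Without the block, the unadjusted p changed from 0.0160 to 0.0849 in edgeR's test.

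*Pde10a* (ENSMUSG00000023868, chromosome 17 from 8525372 to 8986648) encodes a phosphodiesterase that hydrolyzes cAMP and cGMP and is most abundant in striatal projection neurons. It had 79.2, 73.3 and 83.8 CPM in the vehicle libraries and 79.0, 80.8 and 71.4 CPM in the SP libraries, which overlapped. Its log2 fold change was -0.031 (standard error 0.0762, 95% interval -0.21 to 0.15, FDR 0.920).

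Of the monoamine oxidases, *Maob* (ENSMUSG00000040147, chromosome X from 16709282 to 16817366) had 25.2, 26.6 and 27.5 CPM in vehicle 1 to 3 and 19.2, 23.6 and 25.7 CPM in SP 1 to 3. SP 3 lay within the vehicle range and SP 1 was lowest. The log2 fold change was -0.22 (standard error 0.0801, 95% interval -0.41 to -0.031, FDR 0.439), lower in 3 of 3 pairs, and it was -0.14 without replicate 1 (unadjusted p 0.199, edgeR). Without the block, the unadjusted p of *Maob* changed from 0.0278 to 0.0612 in edgeR's test. In DESeq2's test with the block it was 0.114. *Maoa* (ENSMUSG00000025037, chromosome X from 16619698 to 16687818) had 30.3, 30.9 and 29.6 CPM and 28.3, 27.4 and 29.7 CPM, a log2 fold change of -0.090 (standard error 0.0678, 95% interval -0.25 to 0.069, FDR 0.693). The log2 ratio of *Maob* to *Maoa* counts was -0.20 ± 0.0809 in the vehicle and -0.33 ± 0.198 in the SP libraries (SD, n = 3 each), which did not separate them (p = 0.6, two-sided exact permutation test).

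**Figure D3:**
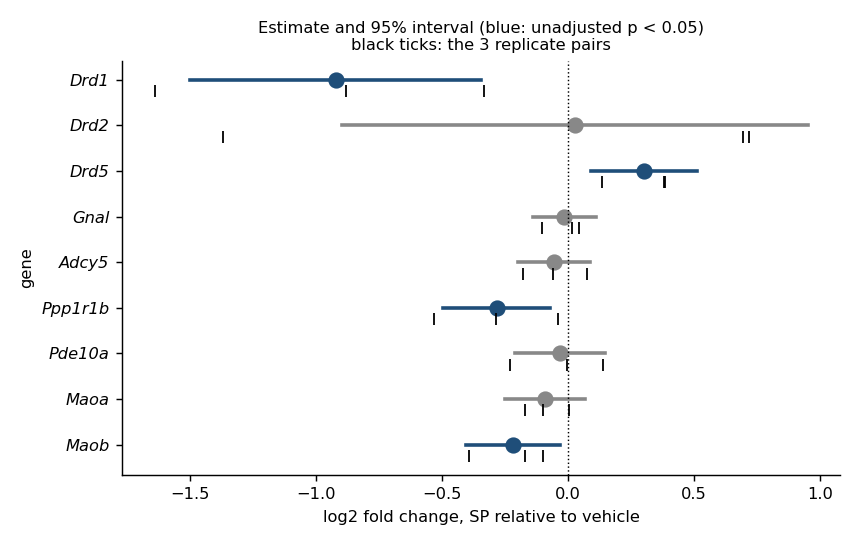
Log2 fold change of SP relative to vehicle for the 9 genes with its 95% interval from edgeR's fit (blue where the unadjusted p was under 0.05), and black ticks for the log2 ratios of the 3 replicate pairs. The interval of *Drd2* runs from -0.90 to 0.95, while those of *Gnal* and *Adcy5* stay between -0.20 and 0.11.

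The rest of the pathway was described by 86 other genes in 9 lists, of which 82 were tested. These lists, too, were chosen with earlier results of these data known. The number called was 0 (0.0293% of all tested genes were), and an unadjusted p under 0.05 was found for 13 of the 82, or 15.9%, beside the 10.1% of all tested genes. Of these 13 genes, 6 were lower and 7 higher. The median log2 fold change was 0.038, beside 0.0015 over all tested genes. The groups did not overlap in 19 of the 82 genes, or 23.2%, beside 18.2% of all tested genes.

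Transcripts of catecholamine synthesis and transport ranged from near the counting floor to abundant. *Th*, the rate-limiting enzyme of catecholamine synthesis, had 0.215 to 0.647 CPM in the vehicle libraries and 0.426 to 0.629 CPM in the SP libraries, and *Slc6a3* and *Slc6a2*, the dopamine and noradrenaline transporters, were too low to be tested. Of the 9 tested genes of synthesis, transport and clearance, 0 had an unadjusted p under 0.05. *Ddc*, the decarboxylase that follows *Th*, had 4.001 to 5.22 CPM in the vehicle libraries and 5.50, 10.8 and 4.89 CPM in SP 1 to 3. *Gch1*, which makes the cofactor of *Th*, had 1.07 to 1.86 CPM and then 1.15, 6.06 and 1.48 CPM. In both genes SP 2 alone was high, and without replicate 2 the log2 fold changes went from 0.61 to 0.16 for *Ddc* and from 0.72 to 0.023 for *Gch1*. *Aldh1a1*, an aldehyde dehydrogenase, was likewise highest in SP 2 with 54.7 CPM, where the other libraries had 37.4 to 45.4 CPM.

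Among the 10 G protein subunits and chaperones, 0 had an unadjusted p under 0.05, and the log2 fold changes ran from -0.092 for *Gnai1*, an inhibitory alpha subunit, to 0.12 for *Gng7*, the gamma subunit that pairs with the *Gnal* product. *Ric8b*, a chaperone of that product, had a log2 fold change of 0.074 (FDR 0.710). Among the 10 regulators of receptors and G proteins, 3 had an unadjusted p under 0.05, where 10.1% of all tested genes had one. *Rgs4*, which speeds the turn-off of G proteins of the Gi and Gq classes, had 133 to 138 CPM in the vehicle libraries and 120, 113 and 124 CPM in SP 1 to 3 (log2 fold change -0.19, FDR 0.384). *Rgs14*, a scaffold enriched in CA2 neurons, had 78.8 to 88.1 CPM against 98.0, 104 and 93.1 CPM (log2 fold change 0.25, FDR 0.335). The groups did not overlap in these 2 genes, as in 18.2% of all tested genes. *Rgs8* was also on the higher side (log2 fold change 0.25, FDR 0.408), and its groups overlapped. Without replicate 2 or 3 its log2 fold change was 0.14 or 0.32, and without replicate 1 the unadjusted p of *Rgs4* was 0.0685 in edgeR's test.

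The cyclases other than *Adcy5* were led by *Adcy1*, the calmodulin-stimulated cyclase of plasticity, with 82.5 CPM per kb on average, followed by *Adcy2* with 31.1, *Adcy9* with 14.8 and *Adcy6* with 10.3. On the same scale *Adcy5* had 17.7. Of the 8 genes, *Adcy8* was on the lower side, with 21.6 to 26.2 CPM in the vehicle and 16.3 to 20.8 CPM in the SP libraries (log2 fold change -0.33, FDR 0.437), and *Adcy9* was on the higher side (0.20, FDR 0.493). Without replicate 2 these were -0.15 and 0.075, with unadjusted p of 0.144 and 0.267 in edgeR's test, and without replicate 3 *Adcy9* had an unadjusted p of 0.0662. *Adcy1* had 1326 CPM in SP 2, while the other libraries had 875 to 1033 CPM. *Adcy4*, the lowest cyclase named, had 2.87 to 3.39 CPM and 3.59 to 3.84 CPM, an unadjusted p of 0.113 in edgeR's test. Of the 13 phosphodiesterases other than *Pde10a*, 0 had an unadjusted p under 0.05. The highest per length were *Pde2a* with 65.5 CPM per kb, *Pde1a* with 31.9, *Pde1b* with 24.5 and *Pde4a* with 14.7, and *Pde10a* had 6.06. *Pde4d*, *Pde3b* and *Pde7a*, with the smallest p-values of this list, had log2 fold changes of -0.16, 0.13 and 0.099 and FDRs of 0.544 to 0.672.

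Of the 11 PKA genes, 9 had log2 fold changes below 0, as 8455 of all 17069 tested genes did, and the median was -0.084. The 3 with an unadjusted p under 0.05 were all on the lower side, where 5.59% of all tested genes were. *Prkar2b*, a regulatory subunit, had 41.6, 40.7 and 40.1 CPM in vehicle 1 to 3 and 34.4, 30.3 and 34.0 CPM in SP 1 to 3 (log2 fold change -0.31, standard error 0.0659, FDR 0.308). *Prkacb*, a catalytic subunit, had 346, 345 and 335 CPM and 316, 259 and 305 CPM (log2 fold change -0.23, FDR 0.404). *Akap12*, an anchoring protein, had a log2 fold change of -0.20 (FDR 0.460). In these 3 genes every SP library was below every vehicle library, as in 9.03% of all tested genes, and SP 2 was lowest. Without replicate 2, the log2 fold change of *Prkar2b* was -0.25 and those of *Prkacb* and *Akap12* were both -0.13. That of *Akap12* then had an unadjusted p of 0.169 (0.0970 without replicate 1) in edgeR's test.

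The 12 phosphatases and regulators around DARPP-32 included *Arpp21*, a cAMP-regulated phosphoprotein known from striatal neurons, with 206, 186 and 201 CPM in vehicle 1 to 3 and 161, 126 and 173 CPM in SP 1 to 3. Its log2 fold change of -0.38 (standard error 0.0715, 95% interval -0.55 to -0.21, FDR 0.308) had the smallest unadjusted p of the 82 genes. Without replicate 2 the log2 fold change was -0.29. The catalytic phosphatase 1 subunit gene *Ppp1cc* had 193 to 200 CPM and 213 to 230 CPM (log2 fold change 0.16, FDR 0.415), and *Ppp1r9b*, the spine protein that anchors phosphatase 1, had 940 to 970 CPM and 1019 to 1094 CPM (0.15, FDR 0.474). Without replicate 1, their unadjusted p were 0.0837 and 0.209 in edgeR's test, and *Ppp1r9b* also had 0.0619 without replicate 2 and 0.116 without replicate 3. Of the 9 exchange factors and transcription factors, the CREB coactivator genes *Crtc1* (log2 fold change 0.19, FDR 0.440) and *Crtc3* (0.20, FDR 0.473) were on the higher side. In both, every SP library was above every vehicle library, as in 9.19% of all tested genes. Without replicate 2, *Crtc1* and *Crtc3* had 0.11 and 0.13 (unadjusted p 0.0829 and 0.192 in edgeR's test), and without replicate 1 unadjusted p of 0.129 and 0.130. *Creb1*, the cAMP response element-binding factor itself, had -0.10 (FDR 0.631). By DESeq2 with the block, *Arpp21* was called (FDR 0.00835), where 0.315% of its tested genes were.

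**Figure D4:**
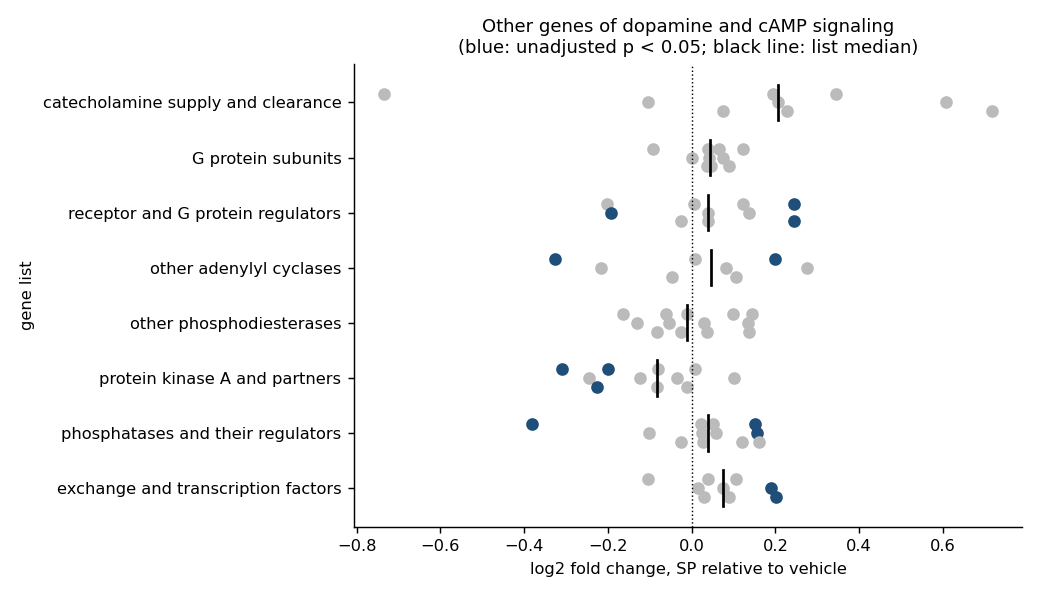
Log2 fold change of SP relative to vehicle for the 82 tested genes of the other lists of dopamine and cAMP signaling, 1 point a gene, with blue for an unadjusted p under 0.05 and a black line at the median of each list. The PKA list has its median at -0.084 and the other medians lie between -0.010 and 0.21.

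The genes whose pattern over the 6 libraries was most like that of *Drd1* were found by the root mean square difference of log2 CPM after centering each gene. The closest were *Camk2d* (0.079), a calcium/calmodulin-dependent kinase gene, *Tshz2* (0.093), a marker of deep neocortical and retrosplenial neurons, *Sowahb* (0.10), *Dkkl1* (0.10) and *Klf5* (0.11), where the median over all tested genes was 0.57. *Camk2d* had 79.2, 75.7 and 73.5 CPM in vehicle 1 to 3 and 41.8, 28.2 and 58.9 CPM in SP 1 to 3 (log2 fold change -0.88, FDR 0.308). *Tshz2* had 66.3, 66.2 and 62.6 CPM and 38.6, 22.3 and 50.5 CPM (log2 fold change -0.87, FDR 0.335). Each had the order of *Drd1* among the SP libraries, SP 2 lowest and SP 3 highest. The genes were picked for likeness to *Drd1* in these same libraries, so this order and the similar log2 fold changes are built in.

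Marker lists were summed in each library and were not tested for a difference between the groups, and 0 of their genes were called. Of all tested genes, 8455 of 17069 had log2 fold changes below 0, 5.59% an unadjusted p under 0.05 on the lower side and 4.48% on the higher side. Of 11 markers of deep neocortical layers and subiculum, where D1 receptors are also expressed, 11 had log2 fold changes below 0 and 4 had an unadjusted p under 0.05. They summed to 329 to 337 CPM in the vehicle libraries and to 294, 234 and 312 CPM in SP 1 to 3, the order of *Drd1*. However, 1 of the 11 is *Tshz2*, which was picked above for its likeness to *Drd1*, so the order of the sum is partly built in. *Tle4*, *Fezf2* and *Rprm* had small log2 fold changes of -0.062, -0.013 and -0.11. Of 11 markers of striatal projection neurons, 6 had log2 fold changes below 0 and 5 above, and 4 of the former had an unadjusted p under 0.05, with sums of 60.9 to 72.2 CPM and 55.9 to 63.0 CPM. *Adora2a*, which defines D2-type striatal neurons, had 0.980 to 1.72 CPM and 1.37 to 1.58 CPM. No marker of these 2 lists was at 0 counts in any library. The part of these cells in the values of *Drd1* was not tested.

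The 7 dentate granule cell markers all had log2 fold changes above 0, with sums of 328 to 350 CPM in the vehicle libraries and 429, 512 and 310 CPM in SP 1 to 3, which overlapped, and 1 of them had an unadjusted p under 0.05. The 5 CA3 markers were also above 0 (141 to 157 CPM against 165 to 199 CPM), 4 of them with an unadjusted p under 0.05. So were the 6 oligodendrocyte markers, 4 of them with such a p, with 2054 to 2362 CPM against 2570, 3433 and 2377 CPM. SP 2, where *Drd1* was lowest and *Drd5* highest, had the highest sum in each of these 3 lists. The CA1, astrocyte and endothelial markers had median log2 fold changes of -0.070, -0.015 and 0.038, and 2 of 5, 1 of 8 and 1 of 5 of them had an unadjusted p under 0.05. Of all tested genes, 10.1% had such a p, 5.59% on the lower side and 4.48% on the higher side. All 9 choroid plexus markers had log2 fold changes below 0, 4 of them with an unadjusted p under 0.05, although their sum in SP 3 lay within the vehicle range, and SP 1, in which they were lowest, was also the lowest library for *Ppp1r1b* and *Maob*. The part of these differences in the values of *Drd5*, *Ppp1r1b* and *Maob* was not tested.

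**Figure D5:**
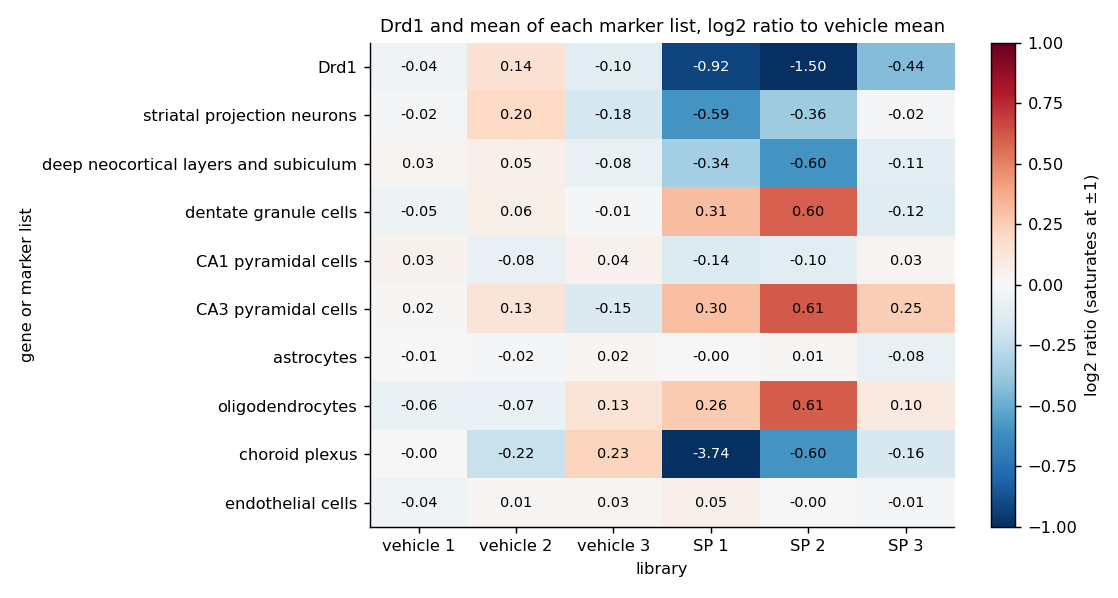
Log2 ratio to the vehicle mean of *Drd1* and of the mean over the tested genes of each marker list (rows) in the 6 libraries (columns), with blue for lower and red for higher values. *Drd1* is at -0.92, -1.50 and -0.44 in SP 1 to 3, the deep neocortical and subicular list is at -0.34, -0.60 and -0.11, and the choroid plexus list is at -3.74 in SP 1.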

How the data were processed

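Hippocampal mRNA of 3 SP and 3 vehicle mice was analyzed. The authors trimmed reads with Trim Galore, aligned them to GRCm38 with STAR and quantified them with Salmon; the deposited values are estimated counts per gene, scaled for neither library size nor gene length. Versions and the annotation release are not given in the sources used here. Columns were matched to mice by the sample labels. Counts were rounded (9.77% were not whole).

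Genes were filtered with filterByExpr (minimum count 10, minimum total 15), normalized by TMM and tested in R 4.3.3 with edgeR 4.0.16 (quasi-likelihood). The replicate number was a block. The study's methods also adjusted for replicates, but its test was DESeq2. Intervals use the standard error of edgeR's fit. DESeq2 1.42.0 and limma 3.58.1 (voom) were alternatives. Fits were tested on simulated data. The labels call the replicate number a batch, which is where the pairing comes from, and across genes, the deviations of the SP and vehicle mouse of each number correlated with r = 0.014, -0.066 and 0.073 (Pearson). With the block, edgeR's p-values measure how the differences between SP and vehicle vary over the replicate numbers. Without it they measure the spread between mice within a group. A count of 3, the floor, is 0.109 to 0.135 CPM (counting error only).

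Exonic lengths came from GENCODE M21 (GRCm38), which holds 55240 of 55421 identifiers. The members, the 9 pathway lists, the 9 marker lists and the tests were chosen with earlier results of these data known. Besides members, genes named were those with the 3 smallest p in each pathway list, the 4 cyclases and 4 phosphodiesterases highest per length, *Drd3*, *Drd4*, *Th*, the 5 genes most like *Drd1*, and the first 3 of each marker list, except items that are not reported here. *Slc6a3* and *Slc6a2* were named after their values were seen. One member on chromosome 18 has no sequence shown here.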

Additional observations from a re-analysis of the deposited data

How the results depend on the processing

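The direction of *Drd1*, *Drd5*, *Ppp1r1b*, *Maoa* and *Maob* was kept under all 11 alternatives. *Drd1* had log2 fold changes from -1.25 to -0.60 and FDRs from 0.0226 to 0.760. It was the 1 member called with no filter on low counts (-0.93, FDR 0.0226) and by DESeq2 with no replicate block (-0.90, FDR 0.0639). The count of members with an unadjusted p under 0.05 was 2 with no replicate block, 2 with DESeq2 with or without the block, and 2 to 5 when a replicate number was left out. Without replicate 1, 2 or 3, 5.93%, 11.4% or 10.2% of all tested genes had such a p. In the replicate pairing as a block, the log2 ratio of *Drd1* to *Drd5* differed by -1.25 (p = 0.25, exact sign-flip test). That p is the smallest the test allows, and the pairs of the single genes fixed it in advance. The log2 ratio of *Maob* to *Maoa* differed by -0.13 (p = 0.5, exact sign-flip test). Leaving out a replicate number, the differences were -1.52 to -0.87 for *Drd1* to *Drd5* and -0.20 to -0.052 for *Maob* to *Maoa*.

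Of the other pathway genes, 2 were called with no filter on low counts and 2 by DESeq2 with no replicate block, in each case *Prkar2b* (FDR 0.0414 and 0.0417) and *Arpp21* (FDR 0.00333 and 0.0163), and 1 by DESeq2 with the block. Of all tested genes, 1.37%, 1.02% and 0.315% were called in these 3 settings. Pathway genes with an unadjusted p under 0.05 numbered 9, 10 and 21 without replicate 1, 2 and 3, where 5.93%, 11.4% and 10.2% of all tested genes had one. The sign of small log2 fold changes turned without replicate 1 for *Drd2* (-0.31) and *Th* (-0.041), without replicate 2 for *Gnal* (0.030), *Adcy5* (0.0063), *Gnai1* (0.0077), *Adcy1* (-0.086) and *Pde1b* (0.027), and without replicate 3 for *Drd2* (-0.33), *Pde10a* (0.065) and *Pde4a* (0.016). Over the 3 omissions the values ran up to 0.70 for *Drd2* and 0.62 for *Th*, down to -0.047 for *Gnal*, -0.12 for *Adcy5*, -0.14 for *Gnai1*, -0.12 for *Pde10a*, -0.083 for *Pde1b* and -0.044 for *Pde4a*, and up to 0.27 for *Adcy1*. The causes were not tested.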
